A study of Arabidopsis thaliana with 12 samples.

Results

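The bZIP family are transcription factors with a basic region that contacts DNA and a leucine zipper through which 2 subunits pair. In leaves the family is known for roles in the unfolded protein response of the endoplasmic reticulum, in the response to energy shortage, in light signalling and in zinc supply. Several members act as heterodimers, and some are held at a membrane until a stress releases them, so a transcript level is not a measure of their activity. Members were taken as the probe sets annotated to a single gene whose symbol is BZIP followed by digits, with a log2 value of at least 4 on 3 or more of the 12 arrays and 1 probe set for each gene. Of 14 probe sets with such a symbol, 7 reached that brightness, each from a different gene, among 13567 probe sets tested in all. The 7 genes were BZIP60 (AT1G42990), BZIP28 (AT3G10800), BZIP17 (AT2G40950), BZIP53 (AT3G62420), BZIP61 (AT3G58120), bZIP52 (AT1G06850) and bZIP19 (AT4G35040).

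The arrays measured RNA from whole rosettes of Arabidopsis thaliana in 4 groups of 3: wounded in the light, intact in the light, wounded in the dark and intact in the dark. All plants grew under 10 h of light and 14 h of darkness and were moved to cabinets at 22 °C, either dark or lit at the growth intensity of 250 µmol m-2 s-1, where they stood for 30 min. Leaves were then crushed with a haemostat or left alone, and rosettes were cut and frozen 60 min later, so that intact plants in the dark had the same time in the dark as wounded ones. Wounding in the dark was done under a safelight, and for the second replicate of that group the treatment text is only an abbreviation, so it was placed by its title. That text gives neither the 22 °C nor the 30 min, which are taken to be those of the other arrays. Each array carried 1 extract pooled from 15 to 17 plants, and each of 3 replicate experiments held all 4 treatments. No plants from before the move were analysed here, so a level that is lower in the light cannot be told apart from one that rose in the dark. The labels name no genotype.

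The 4 measured leaf markers (RCA, PSAE-1, LHCB4.2 and PRK, of 8 listed) lay between 13.36 and 15.25 on every array, the root hair genes EXPA7 and EXPA18 lay at 1.90 or below, and PYK10, a root gene, lay between 6.70 and 9.39. None of the leaf markers, of PYK10 or of the guard cell factor FMA passed the test in any contrast. With the replicate experiment as a block LHCB4.2, a light-harvesting protein gene, was called lower in wounded than in intact rosettes in the light (-0.39 ± 0.094, limma, adjusted p = 0.0143). Its wounded arrays lay below the intact ones in the dark too (-0.28 ± 0.094, 0.0800), and the part of this in the wound changes below was not tested. The array's control for 25S ribosomal RNA averaged 7.57 ± 0.77 in rosettes wounded in the dark and 9.62 ± 0.95 in those left intact in the dark (SD, n = 3 each). In the light it averaged 7.36 ± 1.06 in wounded and 7.27 ± 0.33 in intact rosettes. Every contrast was therefore also fitted with its value as a covariate, and that fit is given where a call was lost. Every dark intact array stood above all others, so the covariate is partly confounded with that group. Values are log2, changes are differences of group means with the SE from limma, and a change was called at a Benjamini-Hochberg adjusted p under 0.05 over all 13567 probe sets. In whole rosettes, fewer cells of a type and less RNA per cell cannot be told apart.

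**Figure D1:**
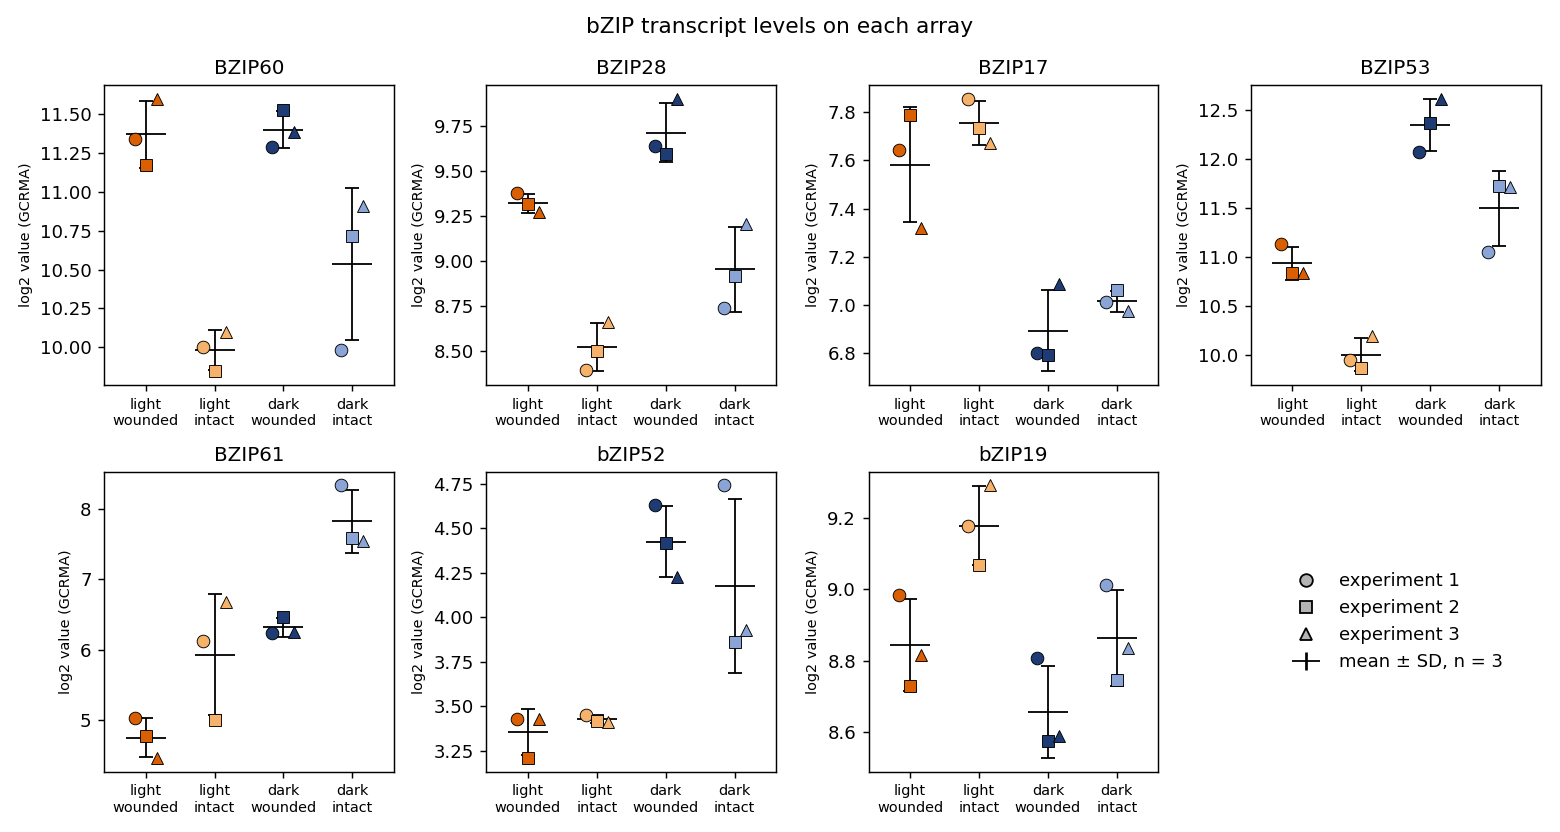
Log2 value of each of the 7 bZIP genes (vertical axis, a separate scale for each gene) on the 12 arrays, by group (horizontal axis). Symbols mark the replicate experiment, and bars give the mean ± SD of 3 arrays. BZIP60 and BZIP28 stand higher in both wounded groups, BZIP53 higher both with wounding and in the dark, and BZIP61 highest in intact rosettes in the dark.

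Wounding raised 3 bZIP genes, BZIP60, BZIP28 and BZIP53, both in the light and in the dark, and it lowered BZIP61 in the dark. In the light 3 of the 7 genes were called, all of them higher, where 14.9% of all tested probe sets were called, 8.48% as higher and 6.37% as lower. In the dark 4 of the 7 were called, 3 higher and 1 lower, against a background of 8.12% of all tested probe sets (5.84% higher and 2.28% lower). BZIP60, BZIP28 and BZIP53 were each called in 1 direction in both contrasts, which was so for 7.08% of all tested probe sets. The median change of the 7 genes was -0.07 in the light and 0.25 in the dark, against -0.15 and -0.08 over all tested probe sets. Both medians of the 7 are the values of bZIP52, which was bright enough only on dark arrays. They are therefore not read as a tendency of the family. With the replicate experiment as a block, 5 of the 7 were called in the light (27.3% of all) and 4 in the dark (15.1% of all). The count in the dark was 0 with the 25S covariate and 1 or 2 without dark wounded replicate 1, 2 or 3 or dark intact replicate 1.

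BZIP60 encodes a membrane-bound factor of the unfolded protein response whose messenger RNA is spliced by the kinase and nuclease IRE1 when misfolded proteins build up. Its log2 values in the light were 11.34, 11.17 and 11.60 on the arrays of wounded rosettes and 10.00, 9.84 and 10.10 on those of intact rosettes. The lowest wounded array lay above the highest intact one. BZIP60 rose in the light by 1.39 ± 0.22, which is 2.62-fold (limma, adjusted p = 0.00143), and the 3 experiments gave differences of 1.34, 1.33 and 1.50. In the dark its values were 11.29, 11.53 and 11.39 in wounded rosettes and 9.98, 10.72 and 10.91 in intact rosettes. These arrays did not overlap either, but the intact array of experiment 1 stood well below the other intact arrays, at the level seen in the light. The rise in the dark was 0.86 ± 0.22, or 1.82-fold (limma, adjusted p = 0.0334), made up of 1.31, 0.81 and 0.47 by experiment. That call was lost without the dark intact array of experiment 1, where the rise was 0.59 (limma, adjusted p = 0.0819), and without any 1 of the dark wounded arrays (0.0644 to 0.112) or the light wounded array of experiment 1 (0.0505). With the 25S covariate the rise in the dark was 0.62 (limma, adjusted p = 0.492). An array value of this kind does not separate spliced from unspliced messenger RNA.

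In wounded rosettes BZIP60 stood at 11.37 ± 0.22 in the light and 11.40 ± 0.12 in the dark (SD, n = 3 each), a difference of -0.03 with a 95% interval of -0.51 to 0.45. In intact rosettes it stood at 9.98 ± 0.13 in the light and 10.54 ± 0.49 in the dark. That difference of -0.55 ± 0.22 was not called (limma, adjusted p = 0.0913). It was called with the replicate block (0.0410) and without the dark intact array of experiment 1, where it was -0.83 (limma, adjusted p = 0.00620). By experiment the intact difference was 0.02, -0.87 and -0.81.

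BZIP28 encodes another membrane-bound factor, which leaves the endoplasmic reticulum under stress and is cut free in the Golgi by proteases. In the light its values were 9.38, 9.32 and 9.27 in wounded rosettes and 8.40, 8.50 and 8.66 in intact rosettes. In the dark they were 9.64, 9.60 and 9.90 in wounded rosettes and 8.74, 8.92 and 9.21 in intact rosettes. Wounded arrays lay above intact arrays in both settings with no overlap. BZIP28 rose by 0.80 ± 0.15 in the light (1.74-fold, limma, adjusted p = 0.00421) and by 0.76 ± 0.15 in the dark (1.69-fold, adjusted p = 0.00999). All 6 differences by experiment lay between 0.61 and 0.98. Both calls were kept when any 1 array was left out, and the rise in the dark became 0.71 with the 25S covariate (limma, adjusted p = 0.194).

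Light and dark arrays of BZIP28 did not overlap in wounded or in intact rosettes, with lower values in the light each time. The differences of -0.39 ± 0.15 in wounded and -0.43 ± 0.15 in intact rosettes missed the threshold (limma, adjusted p = 0.120 and 0.0609). Both passed with the replicate block (0.0351 and 0.0174), and the intact one also passed without the dark intact array of experiment 1, at -0.54 (limma, adjusted p = 0.0331). The order of group means was the same for BZIP28 and BZIP60: wounded in the dark, wounded in the light, intact in the dark and intact in the light, from high to low.

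BZIP17, the closest relative of BZIP28 among the 7 genes and likewise anchored in the endoplasmic reticulum membrane, is known from salt and protein folding stress. It did not follow the other 2 factors of that group. Wounded rosettes had 7.64, 7.79 and 7.32 in the light and 6.80, 6.79 and 7.09 in the dark. Intact rosettes had 7.86, 7.73 and 7.67 in the light and 7.01, 7.06 and 6.97 in the dark. Every light array thus lay above every dark array, while wounded and intact arrays overlapped. BZIP17 was 1.67-fold higher in the light in intact rosettes (0.74 ± 0.15, limma, adjusted p = 0.00503) and 1.61-fold higher in wounded rosettes (0.69 ± 0.15, adjusted p = 0.0117). The second call was lost without the dark wounded array of experiment 2 (0.64, limma, adjusted p = 0.0530). Its wound changes of -0.17 ± 0.15 in the light and -0.12 ± 0.15 in the dark were not called, with 95% intervals of -0.50 to 0.15 and -0.45 to 0.20.

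**Figure D2:**
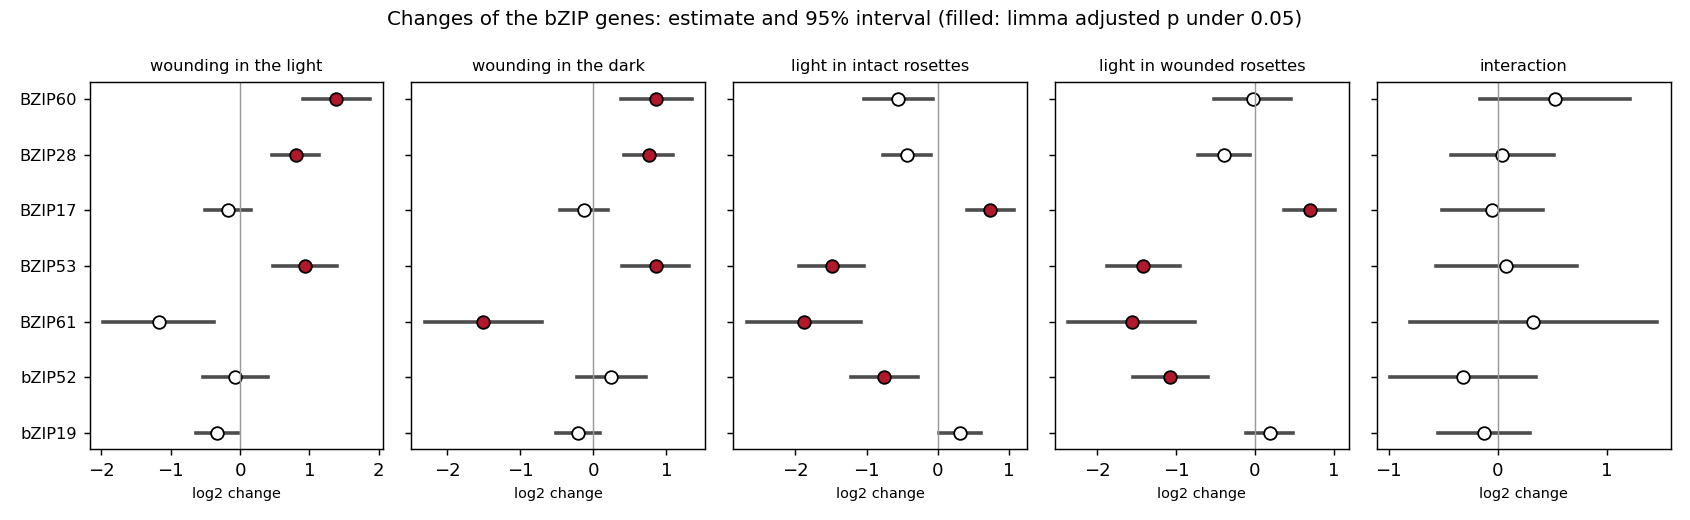
Change of each bZIP gene (down the page) in the 5 contrasts (panels) on the log2 scale, as the limma estimate with its 95% interval. Filled points passed an adjusted p under 0.05: 3 genes for wounding in the light, 4 for wounding in the dark, 4 for light in intact and 4 for light in wounded rosettes, and none for the interaction. Both light counts include bZIP52, which was bright enough only on dark arrays.

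Light and dark rosettes differed in 3 bZIP genes in the same direction, intact or wounded: BZIP53 and BZIP61 were lower in the light and BZIP17 was higher. bZIP52 also passed the test in both contrasts, but it reached the brightness rule only through dark arrays and is not counted with them. In intact rosettes 23.2% of all tested probe sets were called (12.3% higher and 10.9% lower), and in wounded rosettes 12.3% were (4.86% higher and 7.42% lower). A call in 1 direction in both contrasts, as for these 3 genes, was made for 10.4% of all tested probe sets. The median light effect of the 7 genes, bZIP52 among them, was -0.55 in intact and -0.39 in wounded rosettes. Over all tested probe sets it was 0.07 and 0.01. Since bZIP52 had to be higher in the dark, these medians are not read as a tendency of the family. With the replicate block all 7 were called in intact rosettes (40.7% of all probe sets) and 5 in wounded rosettes (28.9%), each count with bZIP52 in it. BZIP28 was then also called lower in the light in both contrasts (limma, adjusted p = 0.0174 intact and 0.0351 wounded).

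BZIP53 encodes a small factor of group S1 that pairs with factors of group C and takes part in the response to low energy, under the kinase SnRK1, and in seed maturation. Wounded rosettes had 11.13, 10.84 and 10.84 in the light and 12.08, 12.37 and 12.61 in the dark. Intact rosettes had 9.96, 9.87 and 10.20 in the light and 11.06, 11.73 and 11.71 in the dark. The groups ran from wounded in the dark down through intact in the dark and wounded in the light to intact in the light, and only the middle 2 groups overlapped. BZIP53 was lower in the light in intact rosettes (-1.49 ± 0.21, 2.81-fold, limma, adjusted p = 6.48e-04) and in wounded rosettes (-1.41 ± 0.21, 2.66-fold, adjusted p = 0.00164). Both light calls were kept without any 1 array and with the 25S covariate.

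Wounding raised BZIP53 by 0.93 ± 0.21 in the light (1.91-fold, limma, adjusted p = 0.0108) and by 0.85 ± 0.21 in the dark (1.81-fold, adjusted p = 0.0275). By experiment the rises were 1.18, 0.97 and 0.65 in the light and 1.02, 0.64 and 0.90 in the dark. The call in the light was lost without the light wounded array of experiment 1 (0.84, limma, adjusted p = 0.0502). The call in the dark was lost without the dark intact array of experiment 1 (0.63, limma, adjusted p = 0.0946) or the dark wounded array of experiment 2 (0.0803) or 3 (0.106). It was also lost with the 25S covariate, at a rise of 0.80 (limma, adjusted p = 0.311). Group means of BZIP53 spanned 2.35 log2 units between rosettes wounded in the dark and intact rosettes in the light.

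BZIP61, a factor of group E of the family, moved with darkness like BZIP53 but against wounding. Its values were 5.03, 4.78 and 4.47 in wounded and 6.12, 5.00 and 6.68 in intact rosettes in the light. In the dark they were 6.23, 6.47 and 6.25 in wounded and 8.33, 7.59 and 7.54 in intact rosettes. The dark intact arrays stood above all others, and the light intact group was the widest, with experiment 2 near the wounded level. BZIP61 fell with wounding in the dark (-1.50 ± 0.36, 2.83-fold, limma, adjusted p = 0.0268). This call was lost without the dark intact array of experiment 1 (-1.25, limma, adjusted p = 0.115), without any 1 of the dark wounded arrays (0.0612 to 0.0820), and with the 25S covariate (-1.66, 0.207).

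In the light the wound change of BZIP61, -1.18 ± 0.36, missed the threshold (limma, adjusted p = 0.0523). It passed with the replicate block (0.0331), without the light intact array of experiment 2 (-1.64, 0.00430) and without the dark intact array of experiment 1 (0.0456). The differences by experiment were -1.09, -0.22 and -2.22. BZIP61 was lower in the light in intact rosettes (-1.89 ± 0.36, 3.70-fold, limma, adjusted p = 0.00412) and in wounded rosettes (-1.56 ± 0.36, 2.95-fold, adjusted p = 0.0175). The wounded call was lost without the light wounded array of experiment 2 (limma, adjusted p = 0.0504) or 3 (0.0651) or the dark wounded array of experiment 2 (0.0673). The intact call was kept without any 1 array but not with the 25S covariate (-2.07, limma, adjusted p = 0.0772).

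bZIP52 belongs to group I of the family, as does the better known factor VIP1. It entered through dark arrays alone, since only 4 arrays reached log2 4: the 3 of rosettes wounded in the dark (4.63, 4.42 and 4.23) and the intact one of experiment 1 in the dark (4.74). The other intact arrays in the dark had 3.86 and 3.93. In the light all values lay between 3.21 and 3.45. A gene admitted in this way had to be higher in the dark, so its calls (limma, adjusted p = 0.00823 in wounded and 0.0274 in intact rosettes) lend no support to a light effect. The differences were -1.07 ± 0.21 in wounded and -0.75 ± 0.21 in intact rosettes, or at least 0.42 and 0.18 when the light level is set to log2 4. The intact call was lost without any 1 of the light intact arrays (limma, adjusted p = 0.0653 to 0.0689) and with the 25S covariate (0.174), and the change was -0.47 without the dark intact array of experiment 1. Just below the brightness rule stood BZIP24, with 2 arrays at log2 4 or more, both from rosettes wounded in the light (4.42 and 4.39).

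bZIP19, which with a close relative senses zinc supply and drives genes of zinc uptake, varied least of the 7, with group means 0.52 apart at most. Wounded rosettes had 8.99, 8.73 and 8.82 in the light and 8.81, 8.58 and 8.59 in the dark. Intact rosettes had 9.18, 9.07 and 9.29 in the light and 9.01, 8.75 and 8.84 in the dark. Intact arrays in the light lay above all others. No contrast was called for bZIP19 in the planned fit. With the replicate block the wound change in the light (-0.33 ± 0.10, limma, adjusted p = 0.0340) and the light effect in intact rosettes (0.31 ± 0.10, 0.0318) were called, and neither was called when median centring was added to the block.

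**Figure D3:**
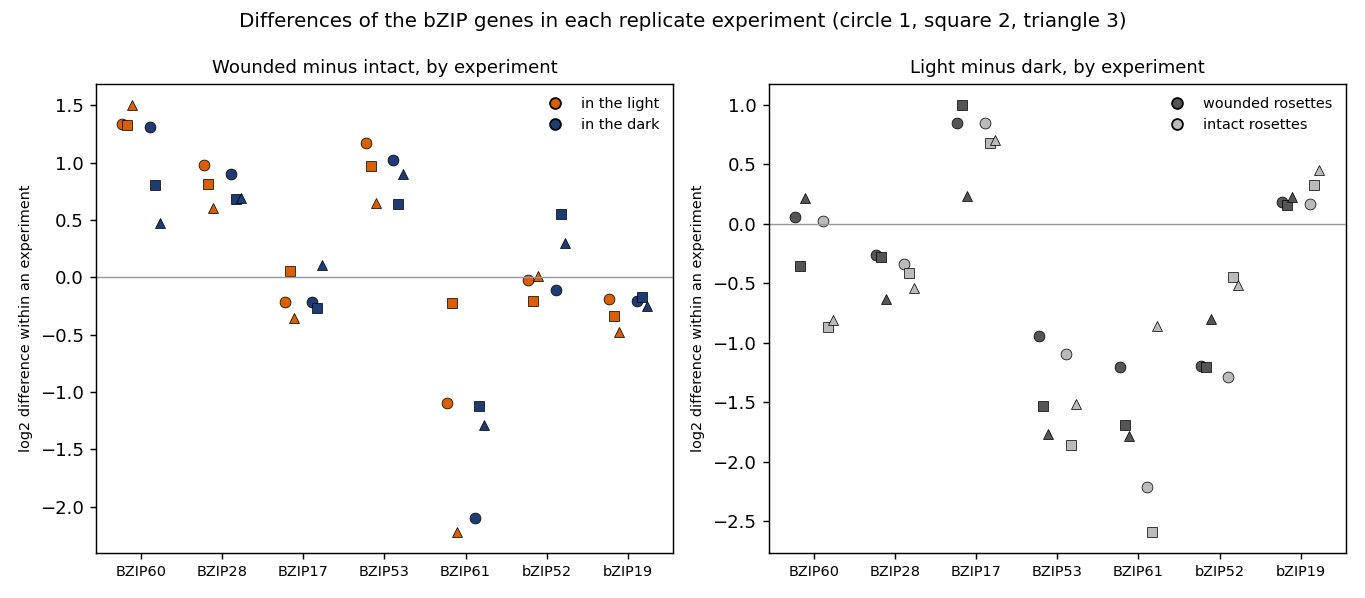
Log2 difference within each replicate experiment (vertical axis) for the 7 bZIP genes: left, wounded less intact rosettes, lit or dark, and right, light less dark for wounded or intact rosettes. Each symbol is 1 difference between 2 arrays. BZIP60, BZIP28 and BZIP53 lie above 0 in all 6 wound comparisons, and BZIP61 and bZIP19 below 0 in all 6. BZIP53, BZIP61 and BZIP28 lie below 0 in all 6 light comparisons, and BZIP17 and bZIP19 above 0 in all 6. bZIP52 also lies below 0 in all 6 light comparisons, but it was bright enough only on dark arrays. bZIP19 was not called in any contrast of the planned fit. The share of all tested probe sets with 1 sign in all 6 comparisons was not computed.

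The wound response of none of the 7 genes was called as different between light and dark. The interaction, taken as the lit wound change less the dark one, passed limma's test for 0 of 7, with 0 of 7 also at an unadjusted p under 0.05, and for 0.0147% of all tested probe sets (0.0369% with the replicate block, again 0 of 7). BZIP60 had the largest estimate, 0.52 ± 0.31, with a 95% interval of -0.16 to 1.21 and values of 0.03, 0.52 and 1.03 by experiment. The intervals of BZIP28 (-0.43 to 0.51), BZIP17 (-0.51 to 0.41), bZIP19 (-0.55 to 0.29) and BZIP53 (-0.57 to 0.73) were narrower than those of bZIP52 (-0.98 to 0.35) and BZIP61 (-0.81 to 1.46). A p above the threshold does not show that the effects were equal, and for BZIP60 and BZIP61 an interaction of more than 1 log2 unit lies within the interval.

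The other 7 bZIP-named probe sets were too dim to be tested. BZIP24, a salt stress factor, lay between 3.35 and 4.42 and was highest on average in rosettes wounded in the light. bZIP44, of the same S group as BZIP53, lay between 3.35 and 4.34, and bZIP58 between 3.12 and 4.01. bZIP48 (2.44 to 2.68), bZIP43 (2.40 to 2.52), bZIP42 (2.26 to 2.46) and BZIP34 (2.00 to 2.05), the close relative of BZIP61, were flat at the low end of the scale, where a low value does not show that a transcript was absent.

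Further bZIP genes on the array carry other symbols. Of 30 listed ones 3 were matched to a probe set, and the others may lie among the 8730 probe sets to which the annotation used gives no gene. Of the 3 matched ones 1 was bright enough, HYH, a light signalling factor related to HY5. HYH was higher in the light by 1.74 ± 0.44 in intact rosettes (limma, adjusted p = 0.0156), a direction shared with BZIP17 and opposite to BZIP53 and BZIP61. That call was lost without the dark intact array of experiment 2 (1.35, limma, adjusted p = 0.0622) or the light intact array of experiment 3 (1.48, 0.0573), and with the 25S covariate (0.77, 0.513). Its difference in wounded rosettes, 1.30 ± 0.44, passed with the replicate block (0.00551) but not without it (limma, adjusted p = 0.0780). In addition, the gene table gives a bZIP number as a synonym for 4 other tested genes, which were taken up after the annotation had been read: AT4G38900 (bZIP29), AT1G06070 (bZIP69), AT2G21230 (bZIP30) and AT2G40620 (bZIP18), all of group I like bZIP52. None of the 4 was called in any contrast without the block. Their wound changes ran from -0.11 to 0.38 in the light and from -0.26 to 0.31 in the dark, and with the block AT1G06070 alone passed, lower in the light in intact rosettes (-0.31 ± 0.10, limma, adjusted p = 0.0303).

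Genes listed for the pathways in which these factors work were read next. For the unfolded protein response, served by BZIP60, BZIP28 and BZIP17, 3 of 19 listed genes were tested, and none was called for wounding. CRT1b, a calreticulin that folds glycoproteins in the endoplasmic reticulum, changed by -0.58 ± 0.26 with wounding in the light and by -0.23 ± 0.26 in the dark. ERDJ3B, a co-chaperone of the same compartment, changed by -0.50 ± 0.20 and -0.23 ± 0.20, and S1P, the protease that cuts BZIP28 and BZIP17, by -0.52 ± 0.29 and -0.86 ± 0.29. All 6 of these changes were below 0, as were the medians over all tested probe sets, -0.15 in the light and -0.08 in the dark. With 3 of 19 listed genes tested and none called, no direction of the pathway is read from them. With the replicate block CRT1b passed in the light (limma, adjusted p = 0.0329) and S1P in the dark (0.0149), both lower in wounded rosettes. In intact rosettes CRT1b (0.83 ± 0.26) and ERDJ3B (0.67 ± 0.20) were higher in the light (limma, adjusted p = 0.0416 and 0.0367). That was the direction of BZIP17 but not of BZIP60 (-0.55 ± 0.22) or BZIP28 (-0.43 ± 0.15), which were called only with the block or without 1 array. S1P changed by -0.15 ± 0.29 and was not called. The calls of CRT1b and ERDJ3B were lost with median centring (0.0690 and 0.0795) and with the 25S covariate (0.484 and 0.344). They were lost without several single arrays as well, with the lowest values, 0.54 for CRT1b and 0.45 for ERDJ3B, without the dark intact array of experiment 2 (limma, adjusted p = 0.139 and 0.125).

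For the targets of group C and S1 factors, 3 of 17 listed genes were tested. PRODH2, a proline dehydrogenase, rose with wounding by 2.57 ± 0.40 in the light and 2.07 ± 0.40 in the dark (limma, adjusted p = 0.00130 and 0.00835), the first with 10.32, 10.90 and 9.93 in wounded and 8.25, 8.03 and 7.18 in intact rosettes. With the 25S covariate the rise in the dark was 2.60 and missed the threshold (limma, adjusted p = 0.0517). The light effects on PRODH2 of -0.79 ± 0.40 in intact and -0.29 ± 0.40 in wounded rosettes were not called. MCCA and IVD, which break down leucine, were lower in the light and not called for wounding. MCCA differed by -2.86 ± 0.23 in intact and -2.33 ± 0.23 in wounded rosettes, and IVD by -1.59 ± 0.23 and -1.57 ± 0.23 (limma, adjusted p between 2.83e-05 and 0.00165). Thus 1 of 3 rose with wounding, where 8.48% of all probe sets did in the light and 5.84% in the dark. Lower in the light were 2 of 3, where 10.9% of all probe sets were in intact and 7.42% in wounded rosettes. None of these 3 was called in both ways. The list was chosen with earlier results of these data known and 3 of 17 genes were tested, so no excess is read from these counts. With the replicate block PRODH2 was also lower in the light in intact rosettes (limma, adjusted p = 0.0359).

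Of the subunits of SnRK1, the kinase upstream of group C and S1 factors, 3 of 6 were tested. AKINBETA1 was lower in the light in intact (-3.09 ± 0.23) and wounded rosettes (-2.59 ± 0.23), with values between 8.11 and 8.74 in the light and between 10.55 and 11.68 in the dark. AKINBETA2 ran the other way and was higher in the light, by 0.86 ± 0.14 in intact and 0.91 ± 0.14 in wounded rosettes (limma, adjusted p = 0.00183 and 0.00230). AKINBETA3 was not called. None of the 3 was called for wounding, although AKINBETA2 passed with the replicate block, lower in wounded rosettes in the light and in the dark (-0.44 ± 0.13 and -0.49 ± 0.13, limma, adjusted p = 0.0324 for each).

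**Figure D4:**
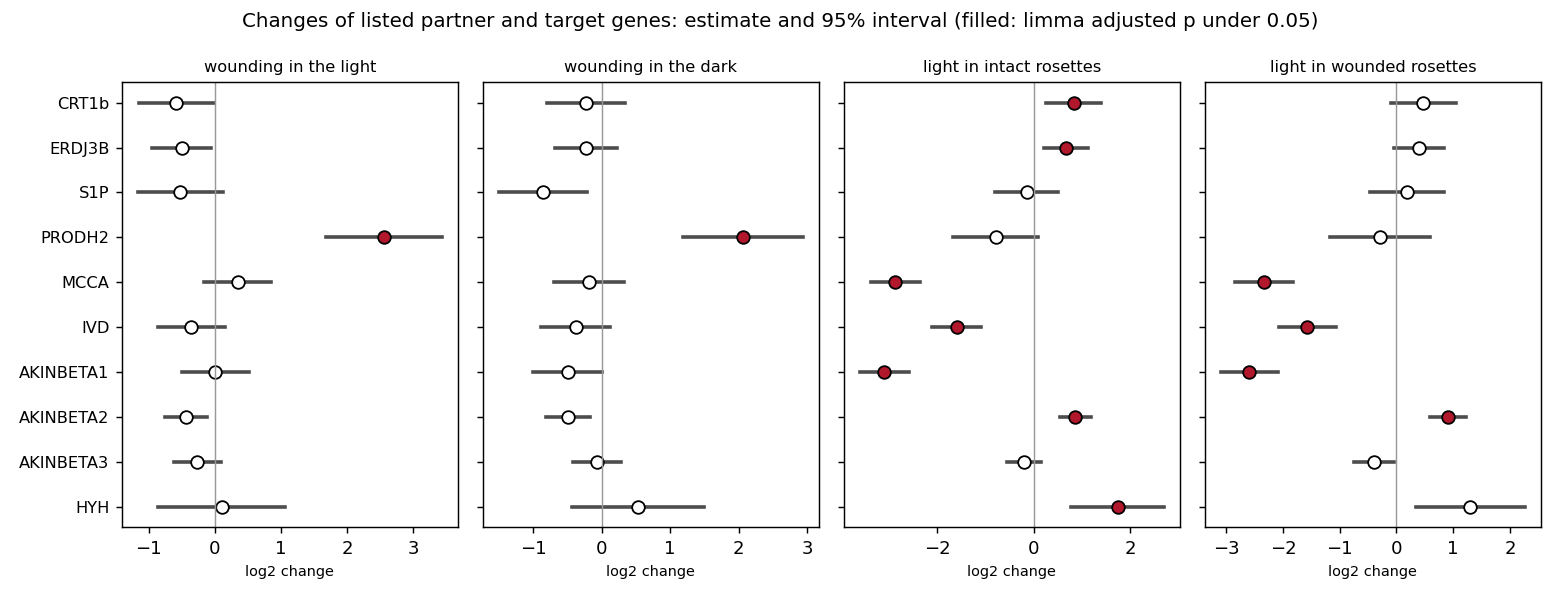
Change of 10 listed genes around the bZIP factors (down the page: unfolded protein response, targets of group C and S1 factors, SnRK1 subunits, and HYH) in 4 contrasts (panels), as the limma log2 estimate with its 95% interval. Filled points passed an adjusted p under 0.05. Of these 10 genes PRODH2 passed for wounding, in the light and in the dark.

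BZIP61 and BZIP53 had the widest spans of group means, 3.06 and 2.35, and the named genes most like each of them over the 12 arrays were sought among 7268 other single-gene probe sets. Nearest to BZIP53 were AT1G25400 (Pearson r = 0.98), AT5G23130 (0.98) and AT2G31945 (0.98). AT1G25400 had group means of 8.93 wounded and 6.29 intact in the light, and 11.43 wounded and 10.01 intact in the dark, the same order as BZIP53 with wider steps. Nearest to BZIP61 were AT1G33250 (0.96), AT1G30200 (0.94) and AT1G28260 (0.94). AT1G28260 had means of 4.68 wounded and 5.95 intact in the light and 6.13 wounded and 7.62 intact in the dark, close to the BZIP61 means of 4.76 and 5.93, and 6.32 and 7.82. These correlations describe 12 arrays that share 4 treatments and 3 experiments, and were selected as the highest of many.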

How the data were processed

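Per the submitters' processing notes, the authors made the deposited log2 values with GCRMA (version not given), 1 column per array. The table holds 22810 probe sets, 64 of them controls, with array medians of 5.40 to 5.60. It holds no detection calls, and the number of arrays limits precision (median SE of a change 0.21). Symbols came from the platform annotation (1 gene for 13513 probe sets, several for 503, none for 8730), and 13436 were matched to loci in the RefSeq gene table.

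Group means over all 12 arrays were fitted together in limma 3.58.1 (R 4.3.3) and tested two-sided after default empirical Bayes moderation. The residual df was 8 and the prior df 3.19, and p-values were adjusted by Benjamini-Hochberg over the 13567 probe sets at log2 4 or more on 3 arrays. The fit was tested on simulated data, drawn independently for each array. These held no effect shared within a replicate experiment, so they do not test the fit under the pairing described next. Replicate numbers pair the arrays: the series description puts all 4 treatments in each replicate, and deviations from group means correlated at 0.30 to 0.76 in all 18 same-numbered pairs and at -0.47 to -0.07 in the other 36. The block is printed where it changes a call.

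Members and gene lists were chosen with earlier results of these data known. Every member is described, listed genes where called or where a member acts with them, and the 3 genes nearest by r for the 2 members of widest span. The UPR, SnRK1, C and S1 target and other bZIP lists held 72 entries, of which 10 were tested. The submitters describe the 3 experiments as independent biological replicates.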

Additional observations from a re-analysis of the deposited data

How the results depend on the processing

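Each result was recomputed under 8 other settings and without each of the 12 arrays in turn; each gene had 1 probe set, so using all member probe sets changes nothing and was not run. A filter at log2 5 leaves out bZIP52. The 15 called changes of bZIP genes, the light calls of bZIP52 among them, kept their direction under every setting run. The replicate block, the other filters and the other moderation leave the estimate of a change as it was. So does leaving out an array of a group outside the contrast. Direction could therefore turn only under the remaining settings. Under the 8 settings they kept their call in 107 cases and lost it in 11. Without single arrays they kept it in 160 cases and lost it in 20. Counts of called bZIP genes moved as follows. With the replicate block they were 5 for wounding in the light and 7 for light in intact rosettes, against 3 and 4. With no filter on dim probe sets, which enlarges the adjustment, the count for wounding in the dark was 1 (BZIP28) against 4. With the 25S ribosomal RNA covariate it was 0 for wounding in the dark (BZIP60, BZIP28, BZIP53 and BZIP61 lost) and 2 against 4 for light in intact rosettes; the cause was not tested. With the covariate 1 more coefficient is fitted, and among the lost changes those of BZIP61 and bZIP52 were larger than before. Leaving out 1 array gave counts of 2 to 4 for wounding in the light, 1 to 4 for wounding in the dark, 3 to 6 for light in intact rosettes, 2 to 4 for light in wounded rosettes and 0 throughout for the interaction. The counts of 1 for wounding in the dark came without dark intact replicate 1 or dark wounded replicate 2 or 3, and the count of 2 without dark wounded replicate 1. The count of 2 for light in wounded rosettes came without dark wounded replicate 2. The listed genes that are not among the 7 members, HYH included, had 13 called changes and no change of direction. Their calls were kept in 96 cases and lost in 8 under other settings. Without single arrays they were kept in 141 cases and lost in 15.

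Signs turned only for changes that were not called, all of them 0.08 or smaller in size but for 2: wounding in the dark for BZIP17 (-0.12) and the BZIP61 interaction (0.33). BZIP60 changed by 0.0049 for light in wounded rosettes with quantile normalization, BZIP17 by 0.0654 for wounding in the dark with the 25S covariate, and the BZIP17 interaction was 0.0138 with median centring, with or without the replicate block. Without single arrays the interaction ran from -0.0585 to 0.30 for BZIP53, from -0.0867 to 0.15 for BZIP28, from -0.15 to 0.0827 for BZIP17 and from -0.14 to 0.70 for BZIP61, below 0 without light intact replicate 2. BZIP60 ran from -0.14 to 0.0705 for light in wounded rosettes, and bZIP52 from -0.11 to 0.0019 for wounding in the light. Levels near log2 4 and below, as for bZIP52 and BZIP24, are limited by the background of the array.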
